A study of Oryza sativa with 7 samples.

Results

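The 8 genes described here were chosen on their RPKM values (reads scaled by gene model length and library total) in caryopses of rice (Oryza sativa, cultivar Kitaake). A gene was taken if its lowest wild-type (WT) library held at least 2 RPKM and at least 2 times the level of its highest mutant library, and if it carried an identifier of the Rice Annotation Project (RAP). A stretch of chromosome 11, identifiers Os11g0590000 to Os11g0625000, was left out by that rule. The table had 35825 rows, 35484 of them with a RAP identifier. Of the 17303 RAP rows outside that stretch with at least 2 RPKM in every WT library, the 8 genes were 0.0462%. The mutant libraries came from osbzip76-1 (2 libraries) and osbzip76-2 (1 library), mutant alleles of the bZIP transcription factor gene OsbZIP76. The mutant libraries were set against 3 libraries of WT Kitaake. Of the 7 libraries that the labels list, 6 were used; osbzip76-2 replicate 1 was not analysed here. All plants were grown in paddy fields in summer and sampled 2 days after fertilization, and the series text calls the replicates biological. The tissue label gives whole caryopsis, whereas the extraction protocol speaks of endosperm, and the lesion in each allele is not stated in the labels.

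In cereal grains the endosperm first divides its nuclei without walls and then forms cell walls around them, a step called cellularization. OsbZIP76 belongs to the basic leucine zipper factors, which bind DNA as dimers, and the series title names it as a partner of NF-YB proteins, subunits of the NF-Y transcription factor. The caryopsis also holds the maternal pericarp, seed coat and nucellus, so that in these bulk samples fewer cells of a type and less RNA per cell cannot be told apart. No row was paired with OsbZIP76 in the sources used here, so its own transcript gives no check of the genotype labels. None of the 8 identifiers was matched to a symbol, and the genes are therefore given by identifier, without a role. By the convention of RAP identifiers the first digits name the chromosome, and the 8 genes lay on 8 different chromosomes (1, 2, 3, 5, 7, 8, 9 and 10).

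The libraries rested on 19900850 to 24887952 reads each, as recovered from the steps of the RPKM values, of which 82.8% to 85.7% lay in genes. WT replicate 2 stood apart from the other libraries in markers of the endosperm. All 8 endosperm markers listed (the starch synthesis genes GBSSI, BEIIb, AGPL2 and AGPS2, the transporter gene BT1, the sucrose synthase gene SUS3, NF-YB1 and NF-YB9) had their lowest level of the 6 libraries there. Their summed level was 923 to 1144 RPKM in the mutant libraries, against 547 and 532 RPKM in WT replicates 1 and 3 and 173 RPKM in WT replicate 2. The 2 markers of maternal seed tissue, MADS29 and GBSSII, summed to 152 to 166 RPKM in the mutant libraries and 219 to 236 RPKM in WT. The embryo gene OSH1 stood at 4.11 to 7.56 RPKM in the mutant libraries and 3.00 to 6.08 RPKM in WT. No marker of these lists was at 0 in any library. The endosperm and maternal sums did not overlap between the genotypes and the embryo gene did. Of the single markers, NF-YB9 overlapped, at 13.6, 14.9 and 19.0 RPKM in the mutants against 15.1, 3.56 and 17.2 RPKM in WT. NF-YB1 and GBSSII overlapped as well. GBSSI, BT1, SUS3, BEIIb, AGPL2, AGPS2 and MADS29 did not. The part of these tissues in the values below was not tested.

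Among the rows with at least 2 RPKM in every WT library, a few genes far lower in the mutants stood apart from the rest. Of the 8 genes, 6 had a lowest WT library at least 5 times the highest mutant library, 5 of them at least 10 times, and only 2 lay between 2 and 5 times. Another 39 rows lay between 1.5 and 2 times. Turned round, the same limits were met by 80 of 17688 rows (0.452%) that were higher in the mutants, of which 23 differed at least 5 times and 13 at least 10 times. The genes just inside the limit were Os05g0298800, with a ratio of lowest WT to highest mutant library of 2.04, and Os08g0401800, with 2.197, and the next was Os07g0657100, at 5.13. Just outside it were Os07g0447800 at 1.999, Os04g0553500 at 1.99, Os07g0277200 at 1.96, Os02g0828200 at 1.94 and Os07g0120900 at 1.89. Os04g0553500 was more abundant than any of the 8 genes, at 19.0 and 29.0 RPKM in osbzip76-1, with 33.2 RPKM in osbzip76-2, against 66.0, 84.7 and 85.8 RPKM in WT. A further 3 rows met the ratio but had a lowest WT library between 1 and 2 RPKM. These were Os04g0590800, Os03g0644700 and Os06g0152550, with ratios of 2.94, 4.26 and 3.16. All 3 ratios lay between 2 and 5 times, so the thinly filled range there depends on the minimum of 2 RPKM. Rows without a RAP identifier played no part, since the highest such ratio among the 129 of them with at least 2 RPKM in every WT library was 1.27.

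**Figure D1:**
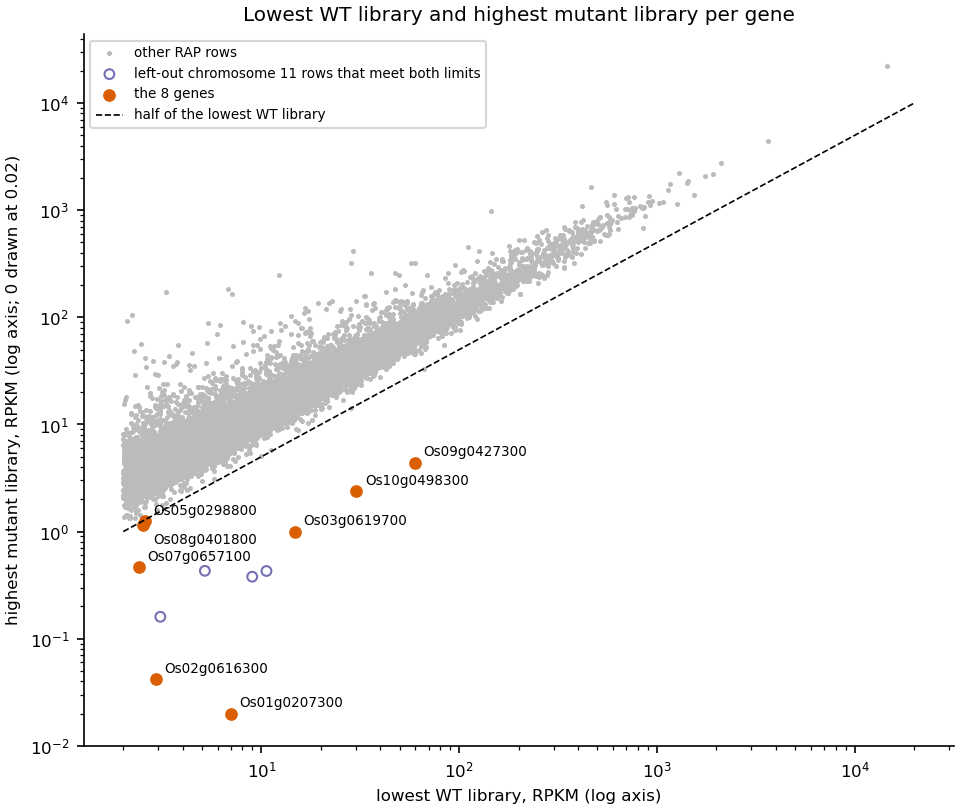
Highest mutant library against lowest WT library, both in RPKM on log axes, for each RAP row with at least 2 RPKM in every WT library. Filled orange points are the 8 genes, open circles are 4 rows of the left-out chromosome 11 stretch that meet both limits, and grey points are the other rows; 6 of the 8 genes lie far below the dashed line, where the lowest WT library is 2 times the highest mutant library, and Os05g0298800 and Os08g0401800 lie close to it.

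The levels that follow are the values that chose the genes, and are described without a test. In every gene the 3 mutant libraries lay below all 3 WT libraries, because the rule required it. Over the 8 genes the median log2 ratio of the mutant mean to the WT mean was -4.88, with the gene that had no mutant read set at its counting floor, beside -0.041 over the 17303 rows. Reads were recovered for every gene, and the 95% intervals given with them are exact binomial ones, which cover counting error but no spread between libraries.

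Transcripts of 2 genes were all but absent from the mutants. Os01g0207300, a gene model of 495 bases on chromosome 1, had 0 RPKM in both osbzip76-1 libraries and in the osbzip76-2 library, against 11.4, 7.002 and 8.52 RPKM in WT replicates 1 to 3. With no read in the mutants and 319 reads in WT it was at least 96.2-fold lower in the mutants, taking 3 reads over the 3 mutant libraries as the floor. Os02g0616300, a model of 2018 bases on chromosome 2, had 0 RPKM in both osbzip76-1 libraries and 0.0419 RPKM in osbzip76-2, against 4.44, 2.93 and 3.50 RPKM in WT. Its reads numbered 2 in the mutants and 525 in WT, a mutant level of 0.421% of WT with an interval from 0.0509% to 1.53%. Neither gene had a read in osbzip76-1, and the single osbzip76-2 library held 0 reads of Os01g0207300 and 2 of Os02g0616300.

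A group of 3 genes stood at about the same low share of their WT level while differing in abundance. Os09g0427300, the most abundant of the 8, had 0.754 and 1.56 RPKM in osbzip76-1, with 4.40 RPKM in osbzip76-2, against 72.5, 60.0 and 70.7 RPKM in WT. It ranked 1625 among the RAP rows by mean WT level. Os10g0498300 had 0.425 and 0.802 RPKM in osbzip76-1, with 2.40 RPKM in osbzip76-2, against 37.3, 30.2 and 36.7 RPKM in WT. Os03g0619700 had 0.426 and 0.0893 RPKM in osbzip76-1, with 0.997 RPKM in osbzip76-2, against 15.6, 15.5 and 14.9 RPKM in WT. From their reads the mutants kept 3.46% of the WT level of Os09g0427300 (interval 3.05% to 3.91%), 3.64% of that of Os10g0498300 (2.94% to 4.46%) and 3.43% of that of Os03g0619700 (2.39% to 4.78%). The intervals overlapped for all 3. Os03g0619700 varied least among the WT libraries, with a coefficient of variation of 2.64%, beside 10.02% and 11.3% for Os09g0427300 and Os10g0498300.

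The other 3 genes were low in WT as well, and 2 of them kept a larger share of their WT level in the mutants. Os07g0657100 had 0.185 and 0.174 RPKM in osbzip76-1, with 0.467 RPKM in osbzip76-2, against 2.39, 5.23 and 3.30 RPKM in WT. It varied most among the WT libraries, with a coefficient of variation of 39.8%, and rested on 15 reads in the mutants and 210 in WT. Os05g0298800 had 0.296 and 1.26 RPKM in osbzip76-1, with 0.648 RPKM in osbzip76-2, against 3.52, 2.56 and 2.93 RPKM in WT. Its osbzip76-1 replicates differed beyond counting error, at 9.81% of the WT level from 10 reads (interval 4.67% to 18.3%) and 41.6% from 45 reads (29.8% to 56.9%). Os08g0401800 had 0.906 and 0.718 RPKM in osbzip76-1, with 1.14 RPKM in osbzip76-2, against 2.93, 2.51 and 2.88 RPKM in WT. The mutants kept 24.5% of the WT level of Os05g0298800 (interval 19.0% to 31.2%) and 33.5% of that of Os08g0401800 (27.7% to 40.4%), and by mean RPKM these 2 genes were 4.10-fold and 3.01-fold lower in the mutants.

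**Figure D2:**
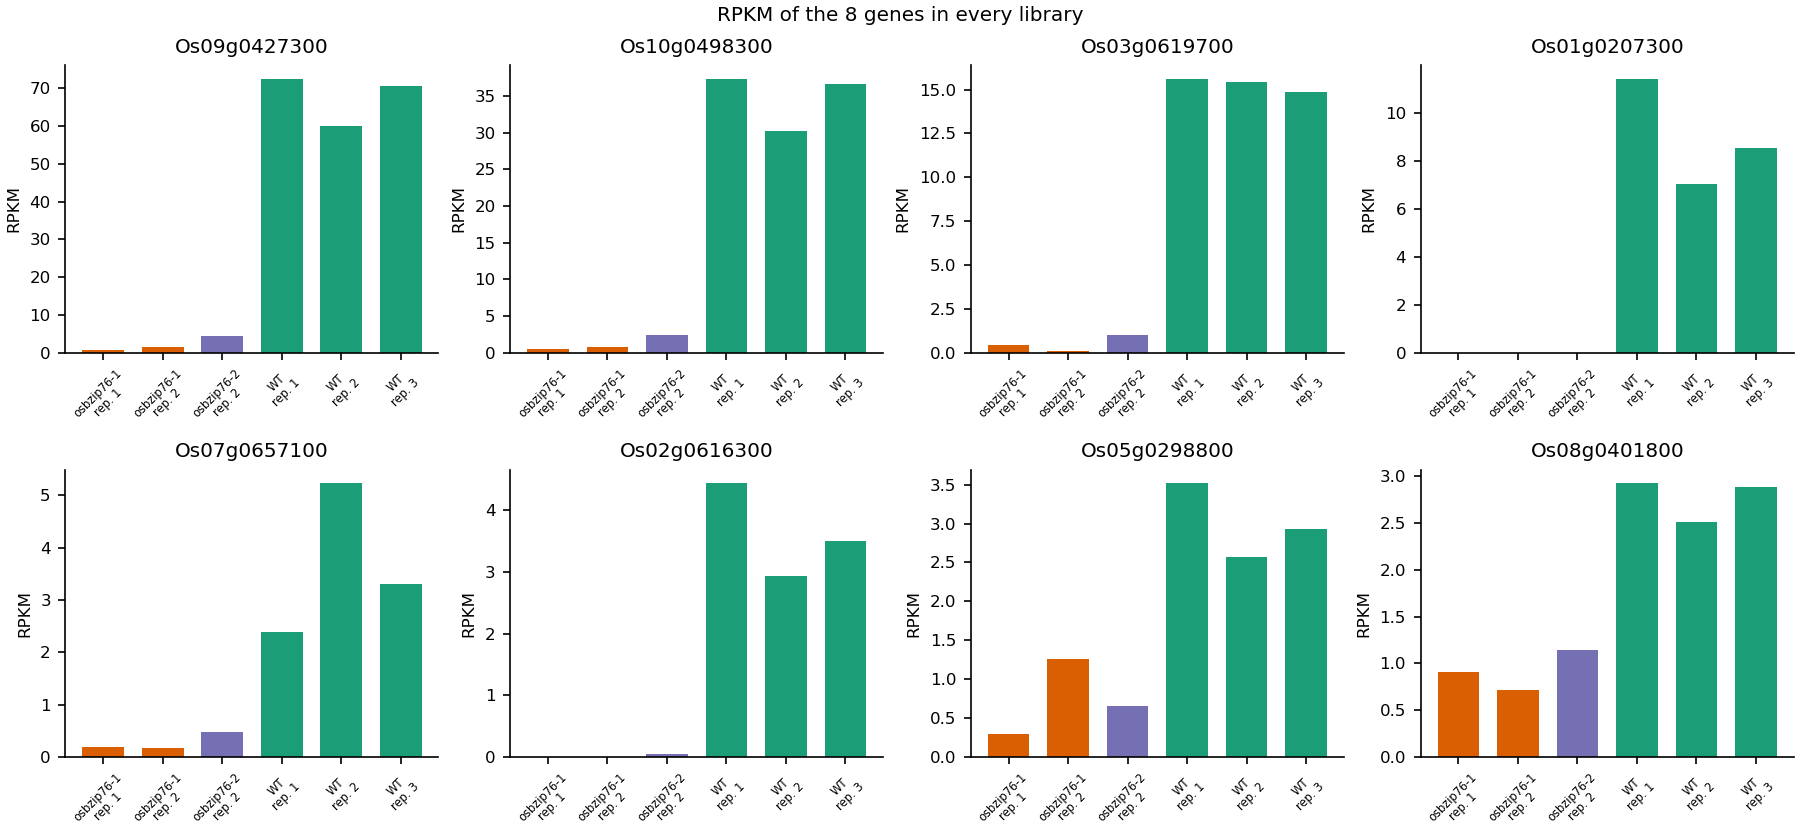
RPKM of the 8 genes in every library, on a linear axis from 0 with its own scale for each gene; orange bars are osbzip76-1, purple osbzip76-2 and green WT, 1 bar per library. Os01g0207300 has no mutant bar and Os02g0616300 almost none, whereas Os05g0298800 and Os08g0401800 keep visible levels in all 3 mutant libraries.

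The alleles were compared next, since the rule treats all mutant libraries alike and does not fix the direction of a difference between them. It does cap both alleles, so that large differences could not enter. The osbzip76-2 library lay above both osbzip76-1 libraries in 6 of the 8 genes, beside 39.3% of the 17303 rows. The exceptions were Os01g0207300, with no read in either allele, and Os05g0298800, where osbzip76-2 lay between the osbzip76-1 replicates. In Os02g0616300 the higher place of osbzip76-2 rested on 2 reads. With limma on log2(RPKM + 1) none of the 8 genes passed an adjusted p of 0.05, beside 46 of 21454 genes tested (0.214%). An unadjusted p under 0.05 was reached by 3 of the 8, and by 1055 of all genes tested. Except for Os09g0427300 and Os10g0498300, with mutant means of 2.24 and 1.21 RPKM, the genes passed the expression filter only through their WT level. At the low mutant levels of all 8 the added 1 RPKM narrows a difference, so these counts are not read as a result about the 8 genes. The osbzip76-2 group was 1 library, so its spread was taken from that of the remaining groups.

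On the log2(RPKM + 1) scale the allele differences of Os09g0427300, Os10g0498300 and Os03g0619700 exceeded those of the other 5 genes. Os09g0427300 stood at 4.40 RPKM in osbzip76-2 against a mean of 1.16 RPKM in osbzip76-1, a log2 difference of 1.35 on the log2(RPKM + 1) scale (SE 0.26, 95% interval 0.72 to 1.98, limma adjusted p = 0.21). Without WT replicate 2, which enters the fit only through the spread, its limma adjusted p was 0.0466 at the same difference. Os10g0498300 differed by 1.08 (SE 0.24, interval 0.52 to 1.65, limma adjusted p = 0.324) and Os03g0619700 by 0.68 (SE 0.24, interval 0.10 to 1.26, limma adjusted p = 0.857). For Os07g0657100 the difference was 0.32 with an interval from -0.60 to 1.23, for Os08g0401800 it was 0.24 with an interval from -0.35 to 0.84, and for Os05g0298800 it was -0.05 with an interval from -0.95 to 0.84. These intervals leave room for a difference in either direction. On this scale no allele difference is given for Os01g0207300 and Os02g0616300, with 0 and 2 reads over the 3 mutant libraries. The sizes depended on the scale: with 0.1 RPKM added in place of 1 RPKM the limma differences were 1.92 for Os09g0427300, 1.86 for Os10g0498300 and 1.80 for Os03g0619700, and with voom on the recovered reads they were 1.97, 1.96 and 2.19. For Os07g0657100 the difference was 1.02 with 0.1 RPKM added and 1.22 with voom, and for Os08g0401800 it was 0.46 and 0.48. The order depended on the scale as well, since voom gave Os02g0616300 a difference of 2.10 from its 2 reads, above those of Os09g0427300 and Os10g0498300. None of these differences passed an adjusted p of 0.05.

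Taken library by library, the osbzip76-2 library kept nearly the same share of the WT level in Os09g0427300, Os10g0498300 and Os03g0619700. By reads it held 6.47% of the WT level of Os09g0427300 (interval 5.55% to 7.50%), 6.88% of that of Os10g0498300 (5.31% to 8.76%) and 6.52% of that of Os03g0619700 (4.20% to 9.67%). In Os01g0207300 it held 0 reads, where the floor of 3 reads stands at a share of 2.84%, and in Os02g0616300 it held 1.15% (0.139% to 4.18%). The upper ends of the intervals of these 2 genes, 3.52% and 4.18%, lay below the intervals of Os09g0427300 and Os10g0498300. In osbzip76-1 replicates 1 and 2 the shares were 1.11% and 2.30% for Os09g0427300 and 1.22% and 2.30% for Os10g0498300. For Os03g0619700 they were 2.79% and 0.584%, with replicate 1 the higher. Over all 6 libraries the reads of Os03g0619700 did not keep a constant ratio to those of the other 2, with a chi-square per degree of freedom of 3.71 against Os09g0427300 and 3.19 against Os10g0498300. For Os01g0207300 these values were 3.21 and 3.19. The measure grows with the number of reads, and WT held 319 reads of Os01g0207300 against 1160 of Os03g0619700. It therefore cannot rank these 2 genes by closeness to the pair. Among the left-out rows on chromosome 11, 4 met both limits, and the osbzip76-2 library held 3.83% to 5.75% of their WT level. Of those 4, 3 had no read in either osbzip76-1 library and Os11g0618500 had 2 reads in replicate 1.

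**Figure D3:**
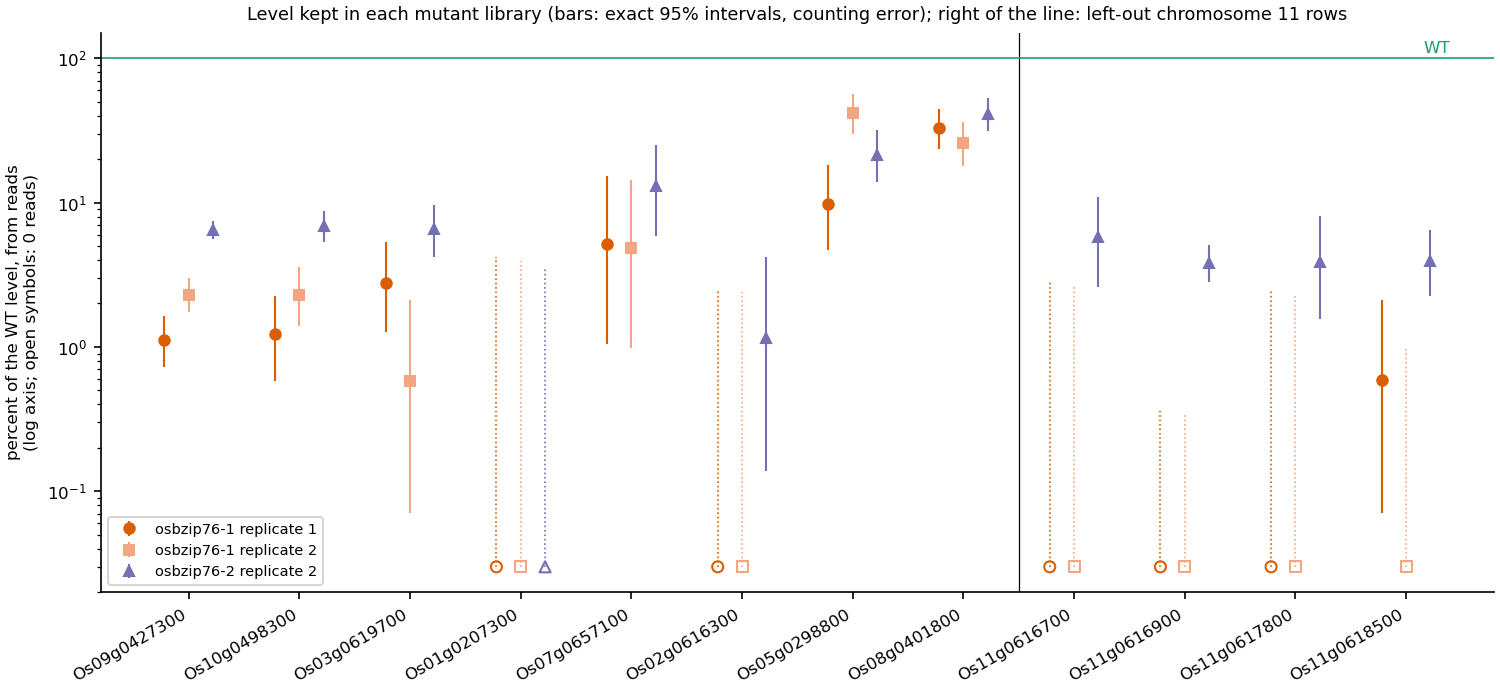
Level kept in each mutant library as a percent of the WT level, from reads, on a log axis, for the 8 genes and, right of the line, the 4 left-out chromosome 11 rows that meet both limits; bars are exact 95% intervals for counting error, and open symbols with dotted lines mark 0 reads and the upper bound of the interval. The osbzip76-2 library sits at 6.47%, 6.88% and 6.52% in Os09g0427300, Os10g0498300 and Os03g0619700, above both osbzip76-1 libraries, and at 0 reads in Os01g0207300.

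Os09g0427300 on chromosome 9 and Os10g0498300 on chromosome 10 kept a constant ratio to each other in every library. For each read of Os10g0498300 there were 2.60, 2.85 and 2.69 reads of Os09g0427300 in the mutant libraries (osbzip76-1 replicates 1 and 2, then osbzip76-2) and 2.85, 2.91 and 2.82 in WT replicates 1 to 3. Over all libraries the ratio was 2.85, from 8673 and 3043 reads, or 1.95 on the RPKM scale, which allows for model lengths of 1732 and 1182 bases. The chi-square of their reads over the 6 libraries was 0.106 per degree of freedom, so the ratio varied by less than counting error. Among the other 27 pairs of the 8 genes the value ran from 0.468, for Os01g0207300 and Os02g0616300, to 137. The value of 0.468 rests on 3 degrees of freedom, since neither gene had a read in osbzip76-1. The range follows in part the drop in the mutants that chose the genes, so it is no yardstick for the constant pair. This comparison of ratios was made after the values were seen and is a description. Sequences of the 2 models were not used here, and whether they share reads as near-identical copies was not tested.

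**Figure D4:**
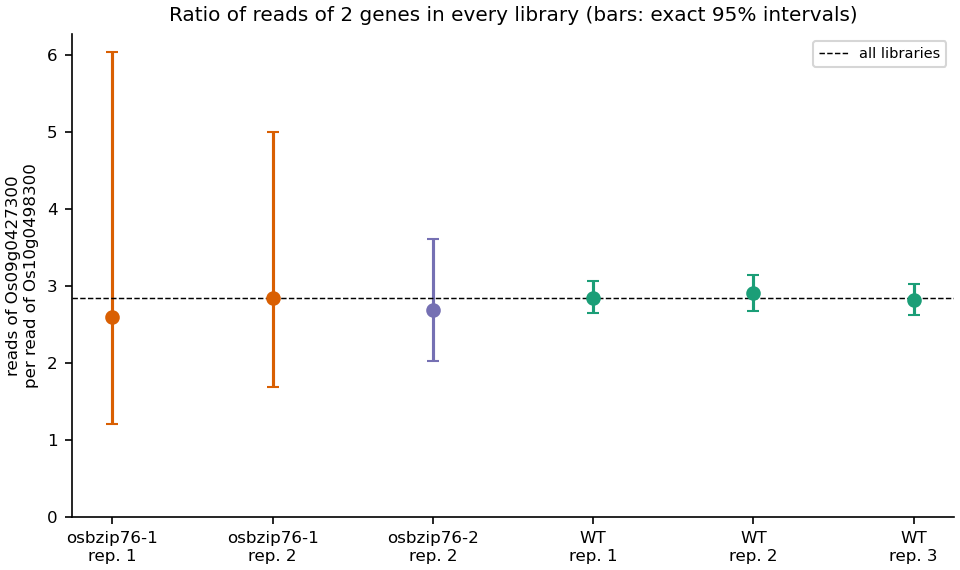
Reads of Os09g0427300 per read of Os10g0498300 in each library, on a linear axis from 0, with exact 95% intervals for counting error; orange is osbzip76-1, purple osbzip76-2 and green WT, and the dashed line is the ratio over all libraries, 2.85. All 6 intervals include the dashed line, and those of the mutant libraries are wider because they rest on fewer reads.

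In WT replicate 2, where the endosperm markers were lowest, most of the 8 genes were below their level in the other WT libraries. The ratio of WT replicate 2 to the mean of WT replicates 1 and 3 ran from 0.703 in Os01g0207300 to 1.84 in Os07g0657100, with a median of 0.827, beside a median of 0.973 over the 17303 rows. WT replicate 2 was the lowest WT library in 6 of the 8 genes (44.8% of the 17303 rows) and the highest in Os07g0657100. The 6 include Os09g0427300 and Os10g0498300, which kept a constant ratio and so do not count separately. They also include Os08g0401800, with 138 reads there against 172 and 175 in WT replicates 1 and 3. The count is not read as a result about the 8 genes, and a link to the endosperm was not tested. In Os03g0619700 the ratio was 1.01. The rule asked for at least 2 RPKM and 2 times every mutant library in WT replicate 2 too, so a gene that fell there as far as the markers could not always enter, and the spread of these ratios is not set against that of the markers. Without WT replicate 2 the median log2 ratio of the 8 genes was -4.93. The marker BT1 had 12.3 RPKM in WT replicate 2, against 110.8 and 114.6 RPKM in WT replicates 1 and 3.

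Of the 58 genes compared next to the 8 along the chromosomes, 40 overlapped in level between mutants and WT. RAP identifiers rise along a chromosome, so the 6 rows on each side in identifier order were taken as neighbours, a width chosen after the values were seen. Of the 96 neighbours 58 had a mean of at least 1 RPKM in a group. All mutant libraries lay below all WT libraries in 11 of these 58 neighbours, or 19.0%, beside 12.3% of all 21728 RAP rows at that level, and above all WT libraries in 7, or 12.1%, beside 9.53%. Os02g0616300 alone gave 2 of the lower and 2 of the higher neighbours. With so few rows these shares are not read as a result about the neighbourhoods. For Os09g0427300 the 8 neighbours compared had log2 ratios of mutant to WT, with 0.1 RPKM added, from -0.40 to 0.62, and none was lower without overlap. For Os01g0207300 the 5 neighbours compared ran from -0.22 to 0.91 and all overlapped between the groups. The nearest rows on either side of Os01g0207300, Os01g0207200 and Os01g0207400, averaged 5.64 and 10.5 RPKM over the mutant libraries, against 6.59 and 5.56 RPKM over the WT libraries. The row next to Os10g0498300, Os10g0498200, was higher in each mutant library, at 21.0, 24.6 and 22.6 RPKM, against 12.99, 12.5 and 15.7 RPKM in WT.

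The neighbourhood of Os02g0616300 differed from this, with rows near 0 in the mutants and rows higher in the mutants side by side. Of its 4 neighbours compared, none overlapped between the groups, 2 being lower and 2 higher. Os02g0616800, 3 rows on, had 0 RPKM in both osbzip76-1 libraries and 0.171 RPKM in osbzip76-2, against 3.08, 0.896 and 4.14 RPKM in WT, and was kept out of the 8 only by WT replicate 2. Os02g0617075, 5 rows on, had 0 RPKM in all 3 mutant libraries, against 1.49, 0.763 and 1.85 RPKM in WT. Os02g0617100, 6 rows on, was higher in the mutants, at 9.96, 11.1 and 10.3 RPKM, against 4.83, 3.00 and 3.999 RPKM in WT. Os02g0616100, 2 rows before, had 0.615, 1.39 and 1.63 RPKM in the mutants, against 0.102, 0.0544 and 0.172 RPKM in WT.

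Of the 9 neighbours of Os07g0657100 compared, 3 were lower in every mutant library than in every WT library and 6 overlapped, with log2 ratios from -1.16 to 0.26. Os07g0657500, 4 rows on, had 3.02 and 3.08 RPKM in osbzip76-1, with 4.52 RPKM in osbzip76-2, against 7.81, 8.92 and 7.36 RPKM in WT. Os07g0657600, 5 rows on, had 2.84 and 1.62 RPKM in osbzip76-1, with 2.18 RPKM in osbzip76-2, against 4.47, 5.36 and 4.17 RPKM in WT. Os07g0656600, 4 rows before, had 0.937 and 0.662 RPKM in osbzip76-1, with 0.434 RPKM in osbzip76-2, against 1.08, 1.16 and 1.01 RPKM in WT. Of the overlapping rows, Os07g0656800 and Os07g0657900 had higher means in the mutants, at 1.16 and 1.20 times the WT mean. Os07g0657200, the row directly after Os07g0657100, averaged 51.3 ± 2.6 RPKM (SD, n = 3) over the mutant libraries and 50.8 ± 2.14 RPKM (SD, n = 3) over the WT libraries, a difference smaller than the spread. Next to Os05g0298800, the row Os05g0298900 had 25.8, 27.9 and 28.6 RPKM in the mutants, against 46.2, 36.5 and 48.7 RPKM in WT.

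**Figure D5:**
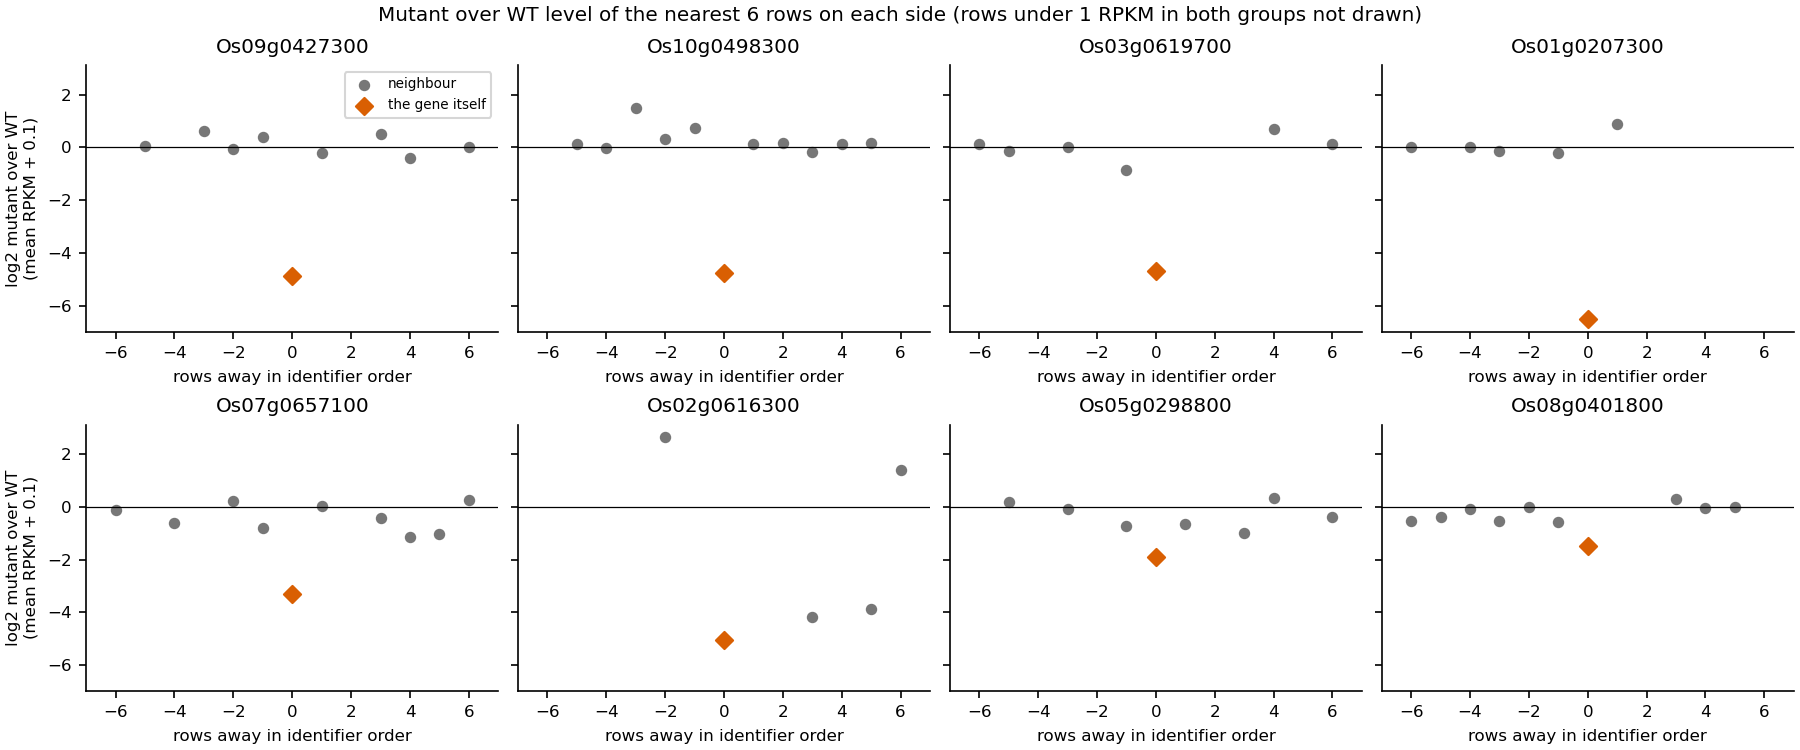
Log2 ratio of mutant to WT mean level (RPKM + 0.1) of each of the 8 genes (orange diamond) and of the rows up to 6 places away in identifier order (grey points; rows under 1 RPKM in both groups are not drawn). Around Os09g0427300 the neighbours lie between -0.40 and 0.62, and around Os02g0616300 they run from -4.16 to 2.65.

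The gene models of the 8 ran from 495 to 2440 bases, as recovered with the reads, with a median of 1440 bases, beside 1589 bases over the 17303 rows. Their mean WT level had a median of 6.31 RPKM, beside 13.1 RPKM over those rows. When the rows with a mean of at least 1 RPKM over the libraries were ordered by how constant their log2 ratio to Os09g0427300 stayed (values + 0.1), Os10g0498300 came first, with an SD of 0.10 over the 6 libraries. The next 4 were the chromosome 11 rows Os11g0616700, Os11g0617800, Os11g0618500 and Os11g0616900, with SDs of 0.53 to 0.58, followed by Os02g0616300 with 0.61. Os03g0619700 had an SD of 0.78. The drop in the mutants that chose Os09g0427300 makes up most of its variation over the libraries. Only rows with a like drop could therefore come near the top, and the order is a description that adds nothing to the rule.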

How the data were processed

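Per the labels' protocols, RNA was selected on poly-T beads and made into libraries with reagents of the NEBNext Ultra series. The authors deposited 1 table of RPKM values, of which the columns of 6 libraries were used. The submitters' processing notes name the build IRGSP-1.0. Aligner, read counting, strandedness and gene models are not stated in the labels, so overlapping, antisense and near-identical genes may share reads. The authors' mean columns equalled the library means and were not used further.

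The members and lists were chosen with earlier results of these data known. RPKM were turned back into reads by finding the library totals and gene lengths at which all 168975 values above 0 were whole within 0.02 reads. The alleles were compared with limma 3.58.1 in R 4.3.3 (lmFit, eBayes with trend, two-sided) on log2(RPKM + 1), in 1 fit of WT, osbzip76-1 and osbzip76-2, over the 21454 rows with a mean of at least 1 RPKM. Benjamini-Hochberg adjustment covered all rows and the threshold was 0.05. Both scripts were tested on simulated data. Mutants and WT were not tested against each other, since that contrast chose the genes.

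The rule for named genes (the 20 lowest ratios, the 5 highest WT levels, members with a name or an allele call, and 5 rows on each side of the limit) took in all 8 members. Neighbours, rows under the WT minimum and chromosome 11 rows were picked with their values in view. Marker identifiers were paired with symbols from general knowledge, except AGPL2, AGPS2 and OSH1, which the table names. The RefSeq gene table of assembly ASM3414082v1 held 0 of the 8 identifiers and 1 of all RAP identifiers. Alternatives were other limits, pseudocounts, filters and scalings, voom on reads, a replicate term, and leaving out each library.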

Additional observations from a re-analysis of the deposited data

How the results depend on the processing

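The number of genes that met the rule depends on its limits and on single libraries. It was 4 with at least 5 RPKM in every WT library and 47 with a ratio of 1.5, and without 1 library it ran from 10 to 34. It was 34 without the osbzip76-2 library, 21 without WT replicate 2, 18 without WT replicate 1 and 15 without WT replicate 3. Leaving a library out can only relax the rule, and all 8 genes were kept each time. All 8 were also among the 9 genes found after division by size factors. The median log2 ratio was -2.75 with a pseudocount of 1 RPKM and ran from -5.85 to -4.47 without 1 library, the lowest being without osbzip76-2. Between the alleles limma called 0 of the 8 genes in each alternative, except 1 (Os09g0427300) without WT replicate 2, where 264 of all genes were called. Voom on the recovered reads, an alternative chosen after seeing the data, called 0 of the 8 and 14 of all genes, with an unadjusted p under 0.05 for 3 of the 8 and 974 of all 21454 genes. A pseudocount of 0.1 RPKM called 2 of all genes and no filter 179, against 46. Without single libraries other than WT replicate 2 the call count over all genes was 0 to 15. The difference of Os05g0298800 changed sign, to 0.0292 with that pseudocount, 0.0236 with voom and 0.346 without osbzip76-1 replicate 2, and ran down to -0.453 without osbzip76-1 replicate 1; the cause was not tested.

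No paired analysis was possible because the alleles share 1 replicate number. With the replicate block as a term the fit called 0 of the 8 genes and 32 of all genes, with differences of 1.28 for Os09g0427300 and 1.07 for Os10g0498300. Deviations of same-numbered osbzip76-1 and WT libraries from their group means had correlations of -0.011 and -0.0966. With 2 osbzip76-1 libraries the deviations of one mirror those of the other, so these are not separate checks and cannot exclude pairing. The replicate numbers were not taken to pair samples. The planned TMM scaling and the planned count test on reads were not run, and leaving out the osbzip76-2 library gives no allele comparison.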

Other observations

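Leaving out 1 library relaxed the rule and brought in further rows. Without WT replicate 2 the rule added 13 genes, among them Os02g0616800, the neighbour of Os02g0616300 described above. Without the osbzip76-2 library it added 26 genes, among them Os02g0828200, which had 3.05 and 4.91 RPKM in osbzip76-1, with 5.75 RPKM in osbzip76-2, against 11.2, 13.8 and 12.8 RPKM in WT. Not all of the added rows lay near the limit: Os01g0813350, added without osbzip76-2, had 4.665 RPKM in its highest mutant library and 4.043 RPKM in its lowest WT library. Os07g0447800 missed the limit by the smallest margin, with 13.7 and 12.6 RPKM in osbzip76-1, with 14.2 RPKM in osbzip76-2, against 33.2, 28.5 and 35.9 RPKM in WT. Of the rows under the WT minimum, Os03g0644700 had 0.257 and 0.454 RPKM in osbzip76-1, with 0.378 RPKM in osbzip76-2, against 1.94, 2.41 and 2.36 RPKM in WT. These rows were chosen after their values were seen.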
